A study of Mus musculus with 2 samples.

Results

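The G1 cyclins, CDK inhibitors and BTG genes are a set of 10 mouse genes that act at the passage from G1 to S phase or hold cells in quiescence. They are the D cyclins Ccnd2 and Ccnd3, the G1 kinases Cdk4 and Cdk6, the INK4 inhibitors Cdkn2c and Cdkn2d, the CIP/KIP inhibitors Cdkn1a and Cdkn1b, and the antiproliferative genes Btg1 and Btg2. They were chosen by GENCODE M21 gene symbol, with no measured value in the rule, and they are 10 of the 55536 GENCODE genes in the large gene table. All 10 are also among the 22457 genes of the small gene table.

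Polyadenylated RNA was sequenced from inflammation-experienced regulatory T cells of male mice aged 7 weeks, primary cells that the labels trace to activated regulatory T cells. Per the labels these are 2 technical replicates of 1 biological replicate, here library 1 and library 2, and the labels name no other condition, genotype, strain or agent. Both libraries were sheared and carry a stated size range of 100 to 300. With 1 group, no condition could be compared, and an SD over the 2 libraries is the spread between libraries of 1 biosample and not between animals. The labels do not say at which step the technical replicates were separated.

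D cyclins bind Cdk4 or Cdk6, and the active kinases phosphorylate the retinoblastoma proteins, which releases E2F transcription factors. INK4 proteins bind Cdk4 and Cdk6 and block cyclin binding, whereas CIP/KIP proteins bind cyclin and CDK complexes, above all those of Cdk2. BTG proteins are abundant in resting lymphocytes, where they link mRNAs to the CCR4-NOT deadenylase and favour quiescence. T cells use Ccnd2, Ccnd3 and Cdk6 when they enter the cell cycle.

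The libraries held 26593141 and 22036168 counts over GENCODE genes after rounding, and the small tables held 7911181 and 6972139. Regulatory T cell markers (Foxp3, Il2ra, Ctla4, Ikzf2, Cd4 and Cd3e) were detected, 6 of 6, with a summed TPM (reads per length, scaled to a common sum in each library) of 2047 and 1926. Markers of other cells differed between the libraries. The 6 erythroid genes (globins, Alas2 and Slc4a1) summed to 8494 TPM in library 1 and 94.8 in library 2, and all 6 were higher in library 1. The 8 macrophage genes summed to 33.7 and 88.8 TPM, with C1qc at 0 and 223 counts, and 7 of 8 were higher in library 2. B cell genes summed to 848 and 757 TPM, and NK cell genes to 192 and 313, mostly Nkg7 (153 and 233), with Ncr1 at 0 and 5 counts. CD8 T cell genes summed to 27.0 and 13.5 TPM, and stromal or epithelial genes to 93.2 and 86.9. That last sum was mostly Pecam1 (83.2 and 76.4 TPM), while 4 of the 6 genes were called at least 2-fold higher in library 2, with Col3a1 and Krt18 at 0 counts in library 1. The 11 S phase and mitosis genes summed to 391 and 312 TPM. Fewer cells of a type and less RNA per cell cannot be told apart in such bulk libraries.

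All 10 genes reached the detection threshold, a TPM of 1 or more in each library (9 at a threshold of 5, without Cdkn1a), and they spanned the range from near the bottom to near the top of the 13718 detected genes. Ccnd2 led at 983 ± 64.4 TPM (SD over the 2 libraries, as for all SDs here) and Btg1 followed at 963 ± 43.0, at the 99.2 and 99.1 percentiles of detected genes. Then came Ccnd3 at 311 ± 16.3, Cdk4 at 231 ± 27.4, Cdkn2d at 107 ± 4.09, Btg2 at 74.4 ± 1.97, Cdk6 at 36.7 ± 6.68, Cdkn1b at 20.9 ± 5.06, Cdkn2c at 8.26 ± 4.12 and Cdkn1a at 3.24 ± 2.11. Ccnd2 was above Btg1 within each library (937 and 932 in library 1, 1028 and 993 in library 2). The library 1 value of Ccnd2 was nevertheless below the library 2 value of Btg1, so their order is not resolved. For every other pair of neighbours in this order, the ranges over the 2 libraries did not overlap.

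**Figure D1:**
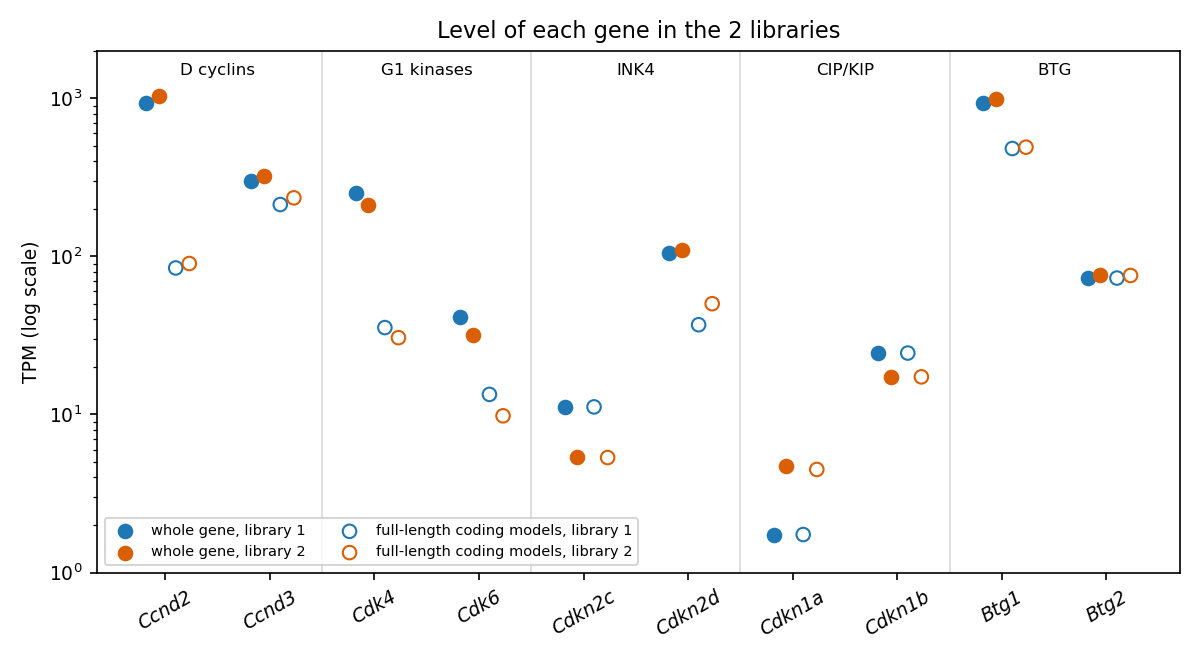
TPM (log scale) of each gene in library 1 and library 2, for the whole gene (filled points) and for its full-length coding transcript models alone (open points). Ccnd2 and Btg1 lead at gene level, at 983 and 963, and Btg1 (486) and Ccnd3 (224) lead when full-length models alone are summed.

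By role, the D cyclins summed to 1237 TPM in library 1 and 1351 in library 2, the BTG genes to 1005 and 1069, the G1 kinases to 292 and 244, the INK4 genes to 115.6 and 115.5, and the CIP/KIP genes to 26.2 and 22.0. The 4 inhibitors together reached 142 and 138 TPM, of which Cdkn2d alone gave 73.6% and 80.1%. Summed inhibitors stood at 0.115 and 0.102 of the summed D cyclins. Summed kinases stood at 0.236 and 0.181 of the D cyclins. Each of these sums rests mainly on 1 of its genes.

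Many transcript models of these genes are fragments, so gene levels were split by transcript class. A full-length model is here a complete coding model with the longest reading frame annotated for the gene. Shorter coding models have a complete but shorter frame, incomplete ones lack an annotated start or end, and the rest retain introns or code for no protein. Over 10818 detected protein-coding genes, full-length models held a median of 59.5% of the gene's TPM in library 1 and 56.5% in library 2, and a median of 76.0% and 74.5% of its counts. Cdkn2c, Cdkn1b and Btg2 had all of their TPM in full-length models, whereas Ccnd2 had 9.02% and 8.77%, and Cdk4 had 14.1% and 14.4%. Short models weigh more in TPM, which divides by length, than in counts.

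**Figure D2:**
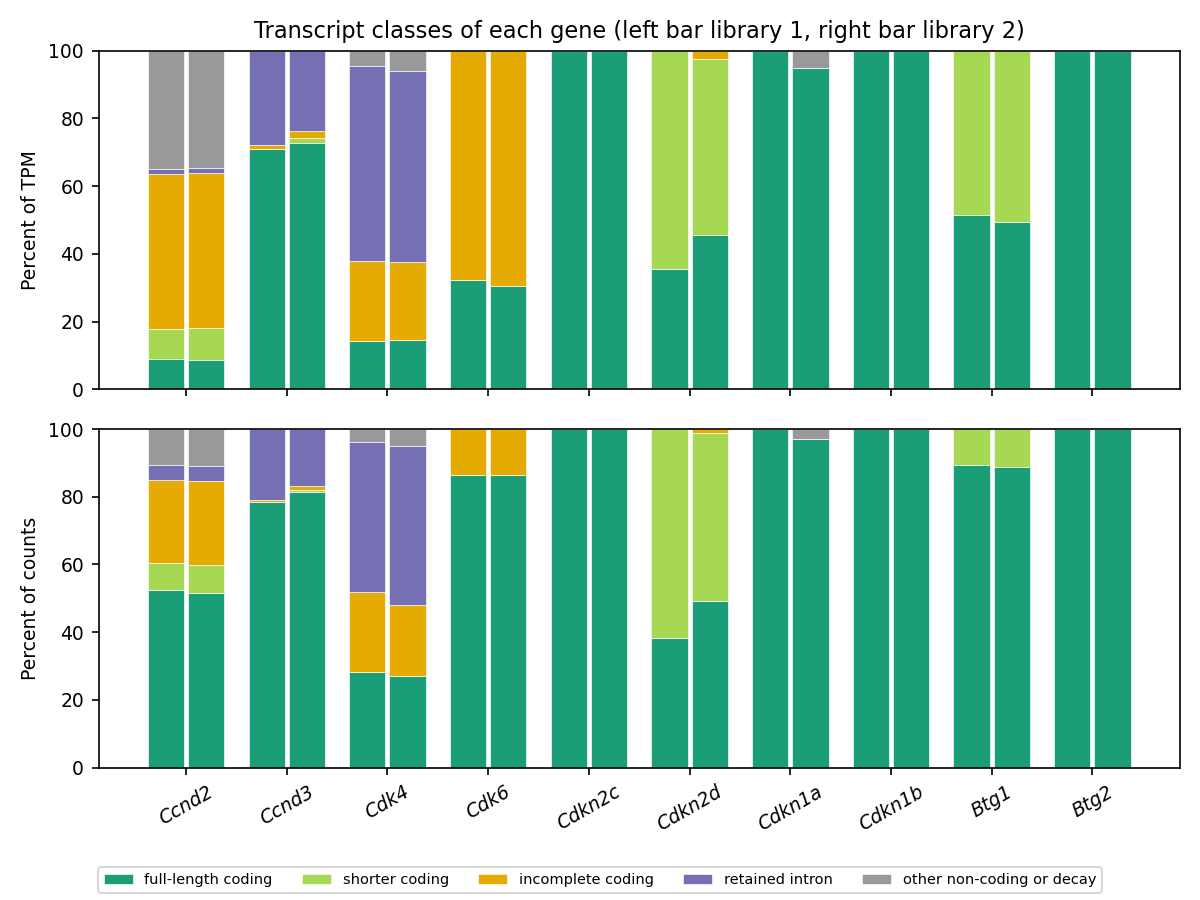
Share of each gene's TPM (upper panel, percent) and of its counts (lower panel, percent) by transcript class, with library 1 as the left bar and library 2 as the right bar of each pair. Full-length models of Ccnd2 take 9.02% and 8.77% of TPM but 52.5% and 51.5% of counts, while Cdkn2c, Cdkn1b and Btg2 are full-length throughout.

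Ccnd2 (ENSMUSG00000000184.12, chr6:127125162-127152193 in mm10, minus strand), the D cyclin induced by mitogens in lymphocytes, measured 937 TPM in library 1 and 1028 in library 2. Its only full-length model, Ccnd2-201, is 6330 bases long with a frame of 289 codons and had a TPM of 84.5 and 90.2. Most of the gene's TPM lay in the incomplete coding model Ccnd2-206 of 627 bases (429 and 472) and in the non-coding Ccnd2-207 of 415 bases (283 and 327). In counts, Ccnd2-201 held 52.5% and 51.5% of the gene, Ccnd2-206 held 24.5% and 24.8%, and Ccnd2-207 held 10.2% and 10.9%. The leading model of Ccnd2 therefore depends on the scale, and the split was nearly equal in the 2 libraries.

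Ccnd3 (ENSMUSG00000034165.16, chr17:47505051-47599691, plus strand), the D cyclin prominent in developing and cycling lymphocytes, had a TPM of 299 and 322. Of its 21 models, 5 are full-length with the same frame of 292 codons, and they held 71.1% and 72.8% of its TPM. Retained-intron models held 27.9% and 23.6%. With all models counted, Ccnd2 stood 3.13 and 3.19 times above Ccnd3. With full-length models alone the order reversed, and Ccnd2 stood at 0.397 and 0.384 of Ccnd3.

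The full-length models of Ccnd3 begin at sites 88416 bases apart, as RefSeq places them, so its 2 upstream windows are shown. Each window gives the 250 bases before a RefSeq start (GRCm38.p6, the mm10 assembly), read on the gene's strand. Capitals mark matches on either strand to GGGCGG (GC box), GTAAACA (forkhead type) or, in later windows, the p53 decamer.
Ccnd3 upstream start, chr17:47504801-47505050, plus strand: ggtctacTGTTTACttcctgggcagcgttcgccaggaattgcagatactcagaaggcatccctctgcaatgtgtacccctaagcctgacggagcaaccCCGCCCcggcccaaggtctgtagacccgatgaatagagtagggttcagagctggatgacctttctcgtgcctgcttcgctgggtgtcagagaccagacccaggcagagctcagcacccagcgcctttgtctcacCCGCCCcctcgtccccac
Ccnd3 downstream start, chr17:47593217-47593466, plus strand: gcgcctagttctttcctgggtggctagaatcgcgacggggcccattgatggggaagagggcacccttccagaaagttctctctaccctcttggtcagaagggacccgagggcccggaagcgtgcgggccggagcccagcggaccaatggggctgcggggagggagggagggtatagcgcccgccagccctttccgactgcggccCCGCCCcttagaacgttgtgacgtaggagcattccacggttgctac
The upstream window holds GC boxes beginning 152 and 18 bases before the start and a forkhead-type match at 243. The downstream window holds a GC box at 46. Of 32851 RefSeq windows of this length, 32.7% hold a GC box and 3.17% a forkhead-type match. The G plus C content was 59.6% upstream and 64.8% downstream.

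Models within 500 bases of the upstream start of Ccnd3 summed to 182 TPM in library 1 and 163 in library 2, and those at the downstream start summed to 117 and 154. Within full-length models, the downstream start took 54.6% in library 1 and 64.5% in library 2. The downstream model Ccnd3-205 alone had 3722 estimated counts with a posterior SD of 318 in library 1, and 3958 with 270 in library 2. Its upstream counterpart Ccnd3-201 had 1973 with a posterior SD of 335, and 1742 with 291. The posterior SD, given in the deposited tables, is the uncertainty from reads that fit several models. Both starts were thus in use in both libraries, and no test of the shift between them was made. At 361 bases Ccnd3 overlaps Bysl (1357 and 767 counts) on the opposite strand, and whether the counting used strand is not given in the sources used here.

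**Figure D3:**
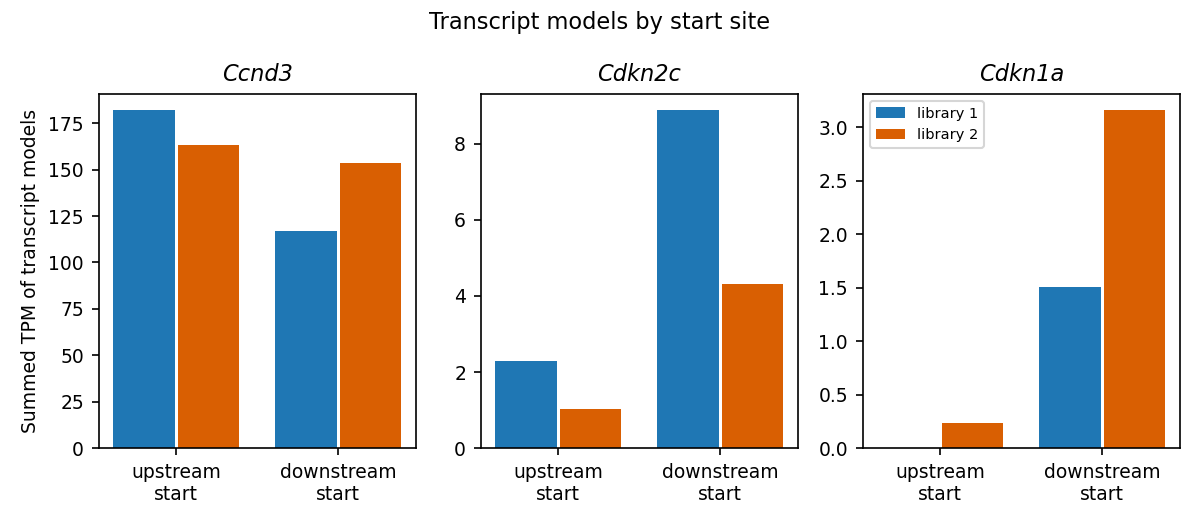
Summed TPM of transcript models within 500 bases of each RefSeq start of Ccnd3, Cdkn2c and Cdkn1a, with library 1 and library 2 as separate bars starting at 0. Ccnd3 uses both starts (182 and 163 TPM upstream, 117 and 154 downstream), Cdkn2c mainly the downstream one, and Cdkn1a has no TPM at the upstream start in library 1 and 0.24 in library 2.

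Cdk4 (ENSMUSG00000006728.12, chr10:127063534-127067920, plus strand), a catalytic partner of the D cyclins, measured 251 TPM in library 1 and 212 in library 2. Its full-length model Cdk4-201, with 303 codons, had a TPM of 35.5 and 30.6. Retained-intron models held 57.4% and 56.3% of its TPM and 44.3% and 46.9% of its counts, led by Cdk4-209 of 468 bases at 37.9% and 35.8% of TPM. Cdk4 overlaps Tspan31 (1598 and 1328 counts) on the opposite strand over 641 bases. Its share in full-length models was at the 21.8 and 22.2 percentiles of detected coding genes, low but not at the extreme.

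Cdk6 (ENSMUSG00000040274.11, chr5:3341485-3531008, plus strand), the other G1 kinase, had a TPM of 41.5 and 32.0. Cdk4 stood 6.05 and 6.62 times above it with all models counted, and 2.65 and 3.12 times with full-length models alone. The long model Cdk6-202 of 11525 bases carried 70.7% and 70.3% of the gene's counts but 15.7% and 14.7% of its TPM. Short incomplete models held the larger part of its TPM, with Cdk6-205 (425 bases) at 35.0% and 45.4%. Cdk4 thus exceeded Cdk6 in both libraries and on both scales, by a factor that varied with the models counted.

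Cdkn2d (ENSMUSG00000096472.2, chr9:21288410-21291407, minus strand), which encodes the INK4d inhibitor, had a TPM of 104 and 110 and was the most abundant of the 4 inhibitors. The shorter coding model Cdkn2d-201, with 50 codons, held 64.6% of its TPM in library 1 and 52.1% in library 2. The full-length Cdkn2d-203, with 166 codons, held 35.4% and 45.6%. In estimated counts Cdkn2d-203 had 843 with a posterior SD of 84.4 in library 1, and 936 with 98.4 in library 2. Cdkn2d-201 had 1359 with a posterior SD of 83.3, and 945 with 95.1. So in library 1 the larger share of this inhibitor was assigned to a model with a frame much shorter than the full one. In library 2 the counts of these models (49.6% for Cdkn2d-201 and 49.2% for Cdkn2d-203) were not separated beyond their posterior SDs.

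Cdkn2c (ENSMUSG00000028551.14, chr4:109660876-109667189, minus strand), which encodes the INK4c inhibitor, measured 11.2 TPM in library 1 and 5.35 in library 2, from 248 and 96 counts. Both of its models carry the same frame of 168 codons from starts that RefSeq places 1384 bases apart. The downstream model Cdkn2c-201 held 79.4% and 80.5% of its TPM and the upstream Cdkn2c-202 held 20.6% and 19.5%, so the balance of starts was nearly equal while the level was not. The 250-base window before the upstream RefSeq start, which lies inside the first exon of Cdkn2c-202, had a G plus C content of 77.2%, with 3 GC boxes and an E2F-type match (TTCCCGC, in 3.82% of all windows). The window before the downstream start had 42.8% and no match to any of 8 motifs searched. Cdkn2d stood 9.34 times above Cdkn2c in library 1 and 20.6 times in library 2.

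Cdkn1b (ENSMUSG00000003031.14, chr6:134920401-134925513, plus strand), which encodes the Kip1 inhibitor, which is high in resting T cells, had a TPM of 24.5 and 17.3. All of its TPM lay in models with the same frame of 197 codons. The shorter transcript Cdkn1b-201 (2393 bases) had 658 counts with a posterior SD of 31.7 in library 1 and 306 with 24.6 in library 2. The longer Cdkn1b-202 (4552 bases) had 564 with 21.7 and 469 with 18.6. Cdkn1b-201 thus made up 69.2% of the gene's TPM in library 1 and 55.6% in library 2.

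Cdkn1a (ENSMUSG00000023067.14, chr17:29090976-29100727, plus strand), which encodes the Cip1 inhibitor and is a classical p53 target, was the least abundant of the 10, with 1.74 TPM in library 1 and 4.73 in library 2, from 51.0 and 103 expected counts. Cdkn1b stood 14.1 times above it in library 1 and 3.66 times in library 2. RefSeq gives Cdkn1a starts 2790 bases apart, and the windows before them are shown for the difference in use between them.
Cdkn1a upstream start, chr17:29090729-29090978, plus strand: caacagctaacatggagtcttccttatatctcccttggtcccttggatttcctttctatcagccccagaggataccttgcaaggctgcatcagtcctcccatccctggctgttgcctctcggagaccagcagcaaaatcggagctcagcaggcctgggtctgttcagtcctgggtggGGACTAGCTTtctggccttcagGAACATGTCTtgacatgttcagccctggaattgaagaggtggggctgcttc
Cdkn1a downstream start, chr17:29093519-29093768, plus strand: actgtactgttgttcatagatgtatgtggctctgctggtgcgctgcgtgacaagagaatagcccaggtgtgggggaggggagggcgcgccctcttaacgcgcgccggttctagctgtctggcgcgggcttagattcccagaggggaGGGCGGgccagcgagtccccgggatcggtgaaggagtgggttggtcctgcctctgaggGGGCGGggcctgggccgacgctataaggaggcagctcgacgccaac
The upstream window holds p53 decamers beginning 73 and 51 bases before the start, and 7.13% of all windows hold at least 1. The downstream window holds GC boxes at 104 and 46 and no p53 decamer. That motif was added to the search after these windows had been seen, and a match is a description of letters, not of binding.

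Models at the upstream start of Cdkn1a had 0 counts in library 1 and 3 in library 2, where a count of 0 allows up to 3. Those at the downstream start had a TPM of 1.51 and 3.16, or 86.8% and 66.8% of the gene. The rest lay mainly in Cdkn1a-203 (0.23 and 1.33), a full-length model that begins further downstream. Transcripts from the upstream start were therefore near or below the detection floor in both libraries. AC167363.2, of undetermined type, overlaps Cdkn1a on the opposite strand over 1046 bases and had 6 counts in library 1 and 48.8 in library 2.

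Btg1 (ENSMUSG00000036478.8, chr10:96617006-96622809, plus strand), which encodes an antiproliferative adaptor of the deadenylase, had a TPM of 932 and 993. It took 44186 and 37205 expected counts, the most of the 10 genes. Its full-length model Btg1-201 (5001 bases, 171 codons) held 51.6% and 49.4% of TPM and 89.5% and 88.7% of counts. The shorter coding Btg1-202 (668 bases, 96 codons) held the rest, at a TPM of 451 and 502. Btg1 with full-length models alone, at 486 ± 6.87, was the most abundant of the 10.

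Btg2 (ENSMUSG00000020423.6, chr1:134075170-134079120, minus strand), its paralog and a known target of p53, had a TPM of 73.0 and 75.8 from a single model of 158 codons. Btg1 stood 12.8 and 13.1 times above Btg2 with all models counted, and 6.60 and 6.48 times with full-length models alone. The order of the BTG genes was thus the same on both scales and in both libraries. Full-length models alone gave the order Btg1, Ccnd3 (224 ± 15.4), Ccnd2 (87.4 ± 3.99), Btg2 (74.4), Cdkn2d (43.6 ± 9.38), Cdk4 (33.0 ± 3.42), Cdkn1b (20.9), Cdk6 (11.6 ± 2.54), Cdkn2c and Cdkn1a (3.12 ± 1.94). On that scale the inhibitors summed to 0.250 and 0.238 of the D cyclins.

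The 2 libraries were then compared for every gene by an exact binomial test (2-sided) of rounded expected counts against the library totals, adjusted by Benjamini-Hochberg over 24253 genes. It compares these libraries, not conditions, and covers counting error only. Of the 10 genes 8 were called at an adjusted p under 0.05, against 70.3% of all genes tested, so their number called is close to the background. There were 4 higher in library 1 (23.9% of all genes) and 4 higher in library 2 (46.4%). Most of these differences were small. The median absolute log2 ratio was 0.14 for the 10 genes, 0.16 for the 3981 genes with a mean TPM of 50 or more and 0.70 for all genes tested.

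Higher in library 1 were Cdkn2c, at a log2 ratio of library 2 over library 1 of -1.09 (95% exact interval -1.45 to -0.75), Cdk6 at -0.48 (-0.59 to -0.37), Cdkn1b at -0.39 (-0.52 to -0.25) and Cdk4 at -0.18 (-0.24 to -0.11). Higher in library 2 was Cdkn1a at 1.28 (0.79 to 1.80). With library totals as the scale, Ccnd2 (0.10), Ccnd3 (0.06) and Btg1 (0.02) were also called higher in library 2, but their ratios turned negative with edgeR TMM scaling (-0.0079, -0.046 and -0.086) and with DESeq2 size factors (-0.044, -0.082 and -0.12). By TMM, Btg1 was called higher in library 1, and Ccnd2 and Ccnd3 were not called. By DESeq2, Ccnd2, Ccnd3 and Btg1 were all called higher in library 1. Cdkn2d (0.06, adjusted p = 0.222, exact binomial test) and Btg2 (0.03, adjusted p = 0.410) did not pass, and both ratios were below 0 under TMM and DESeq2 scaling, where Btg2 was called higher in library 1 by DESeq2 (-0.11). The median ratio of detected genes was 0.01 with library totals, -0.10 with TMM and -0.14 with DESeq2. By TMM 5 of the 10 genes were called higher in library 1 (30.1% of all genes tested) and 1 in library 2 (40.5%). By DESeq2 scaling these were 8 (32.1%) and 1 (39.0%).

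**Figure D4:**
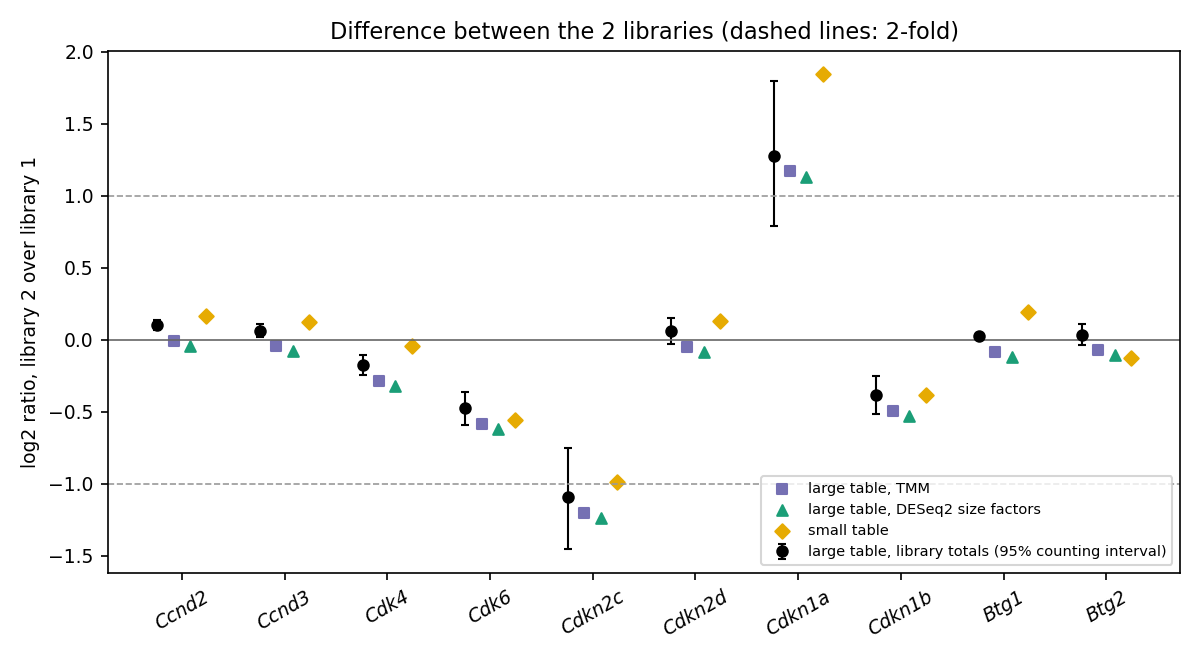
Log2 ratio of library 2 over library 1 for each gene, by library totals with 95% counting intervals (black), TMM (squares), DESeq2 size factors (triangles) and the small table (diamonds); dashed lines mark 2-fold. Cdkn2c (-1.09) and Cdkn1a (1.28) lie beyond 2-fold by library totals, and the ratios of Ccnd2, Ccnd3, Cdkn2d, Btg1 and Btg2 lie close to 0 and change sign with the scaling.

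Only Cdkn2c and Cdkn1a were called and at least 2-fold apart, 2 of 10 against 39.4% of all genes tested, 1 toward library 1 (8.33% of all genes) and 1 toward library 2 (31.0%). Among genes with a mean TPM of 50 or more, where 6 of the 10 genes lie and none passed this rule, the share was 0.728%. Cdkn2c was 2.13-fold higher in library 1 (adjusted p = 1.83e-10, exact binomial test), and in the small table it was 1.98-fold higher there, at 113 and 50 counts. Cdkn1a was 2.43-fold higher in library 2 (adjusted p = 3.07e-07, exact binomial test), and 3.59-fold in the small table, at 12 and 39 counts. By small-table counts, 1 of the 10 passed the 2-fold rule, against 24.4% of its genes. These 2 genes, the least abundant of the set, moved in opposite directions.

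Markers of other cells and states also differed between the libraries. Between 2 libraries a gene can only go up or down, so a shared direction does not tie a marker to Cdkn2c or Cdkn1a. Of the 11 S phase and mitosis genes 8 were called higher in library 1, against 23.9% of all genes, and 5 were at least 2-fold higher there. These 5 were Mki67 (TPM 8.24 and 2.40), Ccnb1 (26.3 and 2.00), Ccna2 (20.7 and 7.31), Cdk1 (8.99 and 3.35) and Birc5 (18.9 and 2.92). Top2a and Tyms were called slightly higher in library 2 (log2 ratio 0.25 each), but neither was called under TMM, DESeq2 or in the small table. Pcna was not called by library totals, TMM or the small table, and DESeq2 called it higher in library 1 (-0.11). Called higher in library 1 too were 6 of 6 erythroid, 6 of 6 B cell, 2 of 2 CD8 T cell and 4 of 6 regulatory T cell genes. The small table called all erythroid and CD8 T cell genes the same way. There, 4 B cell genes were called higher in library 1 and 1 (Ighm, 0.09) in library 2. Of the regulatory T cell genes, 1 was called higher in library 1 there and 2 (Cd4 at 0.13 and Cd3e at 0.15) in library 2. Foxp3 had a TPM of 87.3 and 87.4. Of the 8 macrophage genes 7 were called higher in library 2, with C1qc at 0 counts in library 1, and Lyz2 went the other way (-2.68). Also called higher in library 2 were 3 of 5 NK cell genes and 4 of 6 stromal or epithelial genes, against 46.4% of all genes. Epcam (-0.87) and Pecam1 (-0.13) were called higher in library 1. The NK cell gene Klrb1c (-0.31) was called higher in library 1 only under TMM and DESeq2, and Ncr1 had too few counts to test. The part of these cells or states in the differences of Cdkn2c and Cdkn1a was not tested.

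In the small table, of whole-number counts on GENCODE M4, 6 of the 10 genes were called, 3 in each direction, against 54.3% of its 14483 genes tested (22.1% higher in library 1 and 32.2% in library 2). Cdk6 (-0.56), Cdkn2c (-0.99) and Cdkn1b (-0.39) were again higher in library 1, and Cdkn1a (1.84) in library 2. Ccnd2 (0.16, adjusted p = 0.0017, exact binomial test) and Btg1 (0.19, adjusted p = 0.014) were called higher in library 2 on that table's own totals. Cdk4 was at -0.04 (adjusted p = 0.557) and Ccnd3 at 0.12 (adjusted p = 0.065), so neither was called there.

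The 2 tables counted the 10 genes very unequally. Over genes with at least 100 counts in both tables (10007 in library 1 and 10027 in library 2), the small count was a median of 45.4% of the large count in library 1 and 46.2% in library 2. Btg1 reached only 1.85% and 2.22% of its large count, at 818 and 825 counts, and 277 genes lay below it in each library. Btg2 stood at 8.71% and 8.27%, Ccnd2 at 10.8% and 12.0%, Ccnd3 at 14.4% and 16.0%, and Cdk6 at 19.3% and 19.5%. The remaining 5 genes lay between 23.5% (Cdkn1a, library 1) and 52.1% (Cdkn2c, library 2). In small-table counts, which carry no length term, Btg1 was therefore 2.88 and 3.60 times Btg2, and Ccnd2 1.43 and 1.47 times Ccnd3. The reason for the unequal counting was not tested.

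Around these genes, a list of 51 other genes of the G1 network was examined, of which 50 could be tested and 46 were detected. Of the 50, 21 were called higher in library 1, 23 higher in library 2 and 6 were not called, against the background of 70.3% called. By TMM the split was 22 and 16, and by DESeq2 24 and 16. The list had a median log2 ratio of 0.07. It was 0.23 over all genes tested, 0.01 over detected genes and -0.02 over genes with a mean TPM of 50 or more. By small-table counts, 29 were called, 14 higher in library 1 and 15 in library 2.

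Among the other G1 cyclins and kinases, 3 of 4 were higher in library 2, against 46.4% of all genes, and none in library 1. One of these, Ccnd1, was below the detection threshold (TPM 0.61 and 1.20) and in the small table was not called (-0.27, 7 and 5 counts). Cdk2, the kinase partner of the E cyclins, had a TPM of 23.3 and 35.2 (log2 ratio of counts 0.55) and Ccne2 2.78 and 6.68 (0.96), whereas Ccne1, at 5.48 and 6.02, was not called (-0.05). Cdk2 and Ccne2 kept their direction under TMM, DESeq2 and the small table. With all models counted, all of these lay far below Cdk4 in level. The full-length model of Cdk4 alone had 35.5 and 30.6 TPM, and full-length levels of these other genes are not given here.

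Among the other CDK inhibitors, Cdkn1c had a TPM of 3.59 and 5.30 and was not called (0.42), and Cdkn2b had 0.76 and 3.30 with a log2 ratio of 2.06, called and at least 2-fold higher in library 2 in both tables. Cdkn2a, which encodes the INK4a inhibitor and ARF, had 0 and 3 counts and was the only gene of the list under a TPM of 1 in both libraries. So Cdkn2d and Cdkn2c were the more abundant INK4 genes here, and Cdkn2a was at the detection floor.

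The retinoblastoma and E2F role had 13 genes, with 8 called toward library 1 and 5 toward library 2, against 23.9% and 46.4% of all genes tested. In the small table the split was 6 and 4. Tfdp2 was called higher in library 2 by large-table counts (0.33) but higher in library 1 in the small table (-0.36). The most abundant was E2f4, a mainly repressive E2F of resting cells, at a TPM of 149 and 138 (-0.15, and -0.06 in the small table, not called). Next were the pocket protein gene Rbl2 at 68.0 and 83.8 (0.25) and Rb1 at 63.7 and 67.4 (0.40). E2f7 (2.73 and 0.97, -2.01) and E2f8 (5.20 and 1.55, -2.16), repressive E2Fs expressed in S phase, were at least 2-fold higher in library 1 in both tables. Of the CDK-activating kinase, Cdk7 had a TPM of 83.1 and 69.9 (-0.46) and Mnat1 18.5 and 24.2 (0.41), so its subunits did not all move the same way. Ccnh, at 58.7 and 71.2 (0.19), was called by library totals but not under TMM, DESeq2 or in the small table.

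Among 13 regulators and p53 targets, 7 calls favoured library 1 and 4 favoured library 2, against 23.9% and 46.4% of all genes tested. In the small table the split was 4 and 3. Trp53, which encodes p53, had a TPM of 222 and 204 (-0.16), Myc 142 and 195 (0.47), and the p53 target Ccng1 87.5 and 111 (0.32). In the small table Trp53 was not called (-0.00096). Cks1b, a CDK-binding subunit needed for Kip1 turnover, had 22.9 and 11.0 (-1.06) and was called higher in library 1 in both tables. Trp53 transcripts were thus abundant while Cdkn1a was the lowest of the 10 genes, and the activity of p53 was not tested.

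Of the TOB/BTG relatives, Tob2 had a TPM of 62.0 and 63.9 (0.06, not called). Its ratio was below 0 under TMM and DESeq2, and DESeq2 called it higher in library 1 (-0.09). Btg3 had 46.6 and 53.3 (0.18) and Tob1 32.7 and 38.1 (0.20), and neither was called under TMM, DESeq2 or in the small table. In the small table Btg3 had only 3 and 7 counts, 0.284% and 0.707% of its large count. Btg4, at 1.26 and 0.31 TPM from 30 and 5 counts, was higher in library 1 (-2.20). Btg1 exceeded each of these relatives in both libraries. Of 11 CCR4-NOT and poly(A)-binding genes, the partners of BTG proteins, all were detected. Of these, 4 were called higher in library 1 and 6 in library 2, against 23.9% and 46.4% of all genes tested. In the small table the split was 2 and 3. Pabpc1, the cytoplasmic poly(A)-binding protein, had a TPM of 275 and 235 (-0.20) and the CCR4-NOT subunit gene Cnot2 112 and 97.7 (-0.12). Neither was called in the small table (-0.0017 and -0.09). The deadenylase gene Cnot8 had 93.8 and 111 (0.09, below 0 and not called under TMM and DESeq2, but 0.23 and called in the small table).

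**Figure D5:**
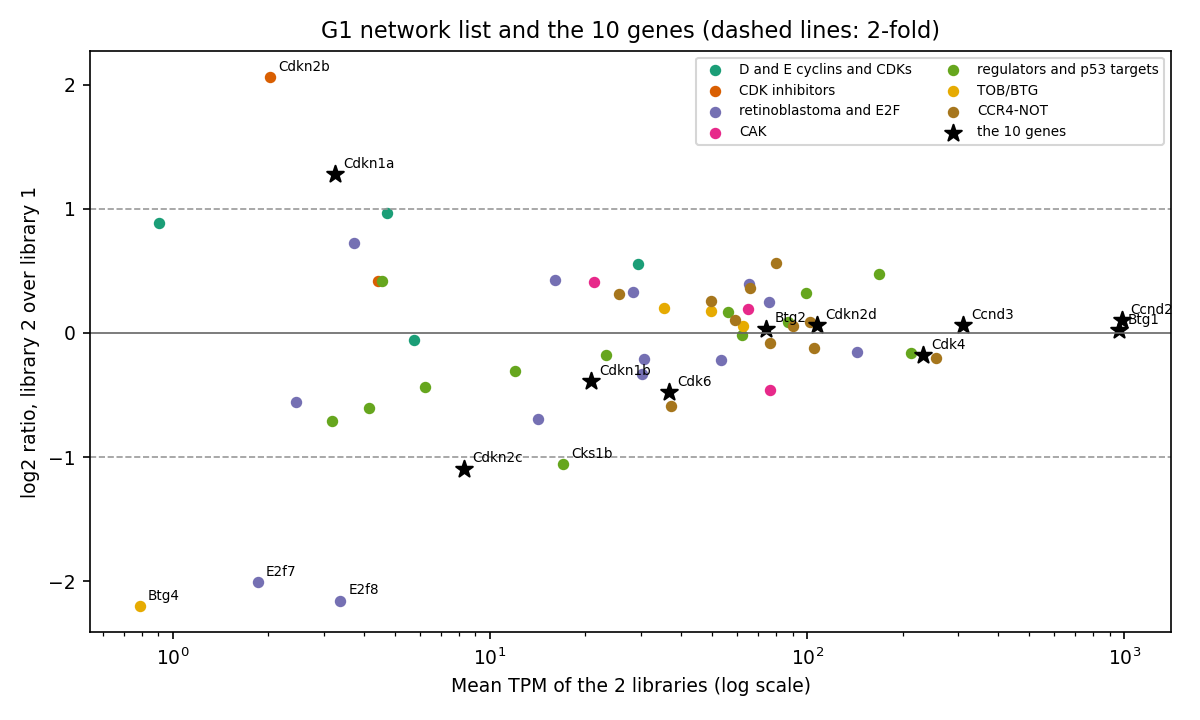
Log2 ratio of library 2 over library 1 against mean TPM (log scale) for the 50 tested G1 network genes, coloured by role, and the 10 genes (stars); dashed lines mark 2-fold. The genes beyond 2-fold are all at low level: Cdkn2b (2.06) and Cdkn1a (1.28) above, and Cdkn2c (-1.09), Cks1b (-1.06), E2f7 (-2.01), E2f8 (-2.16) and Btg4 (-2.20) below.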

How the data were processed

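The authors deposited, for each of the 2 libraries, a large gene table and a transcript table derived from alignments to the mm10 transcriptome with GENCODE M21, and a small gene table with GENCODE M4, per the deposited description. Per the file headers, the large and transcript tables hold expected counts, TPM, FPKM, posterior means and SDs of the counts, and each transcript as a percent of its gene. The small table holds whole-number counts deposited by the authors. For the aligner, quantifier, strand use and removal of duplicates, nothing is given in the sources used. Rows that name no GENCODE gene (26345, 0.201% and 0.235% of counts) were left out.

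Expected counts were rounded and tested per gene by an exact binomial test (2-sided) on library totals, for genes with at least 10 summed counts, with Benjamini-Hochberg adjustment (Python 3.11.15, scipy 1.17.1). Log2 ratios were computed after adding 0.5 counts. Alternatives were edgeR 4.0.16 TMM factors, DESeq2 1.42.0 size factors (R 4.3.3), other minimum counts, FPKM, TPM + 1, the small table, each library alone and full-length transcript models. The test was checked only on simulated counts that held counting error alone, so the check does not cover other variation between libraries. A count of 0 allows 3 counts, or 0.113 and 0.136 CPM in the 2 libraries. Intervals and floors cover counting error only, since PCR copies are not independent.

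The members and lists were chosen with earlier results of these data known. Named were the 10 genes and, of the network list, the 3 most abundant genes of each role, those under a TPM of 1 in both libraries, and those called at least 2-fold apart in the large table with the same sign in the small one. Of the erythroid list, 1 gene is not reported here. Of the marker lists, those at 0 counts were named. Named with their values in view were Ccnd1, Tfdp2, Pecam1, Epcam, Lyz2, Klrb1c, Nkg7, Ighm, Cd4, Cd3e, Foxp3 and the S phase and mitosis genes. RefSeq windows were found for 9 of the 10 genes and matched to GENCODE starts. Motifs were searched on both strands, by exact letters. The TATA box was searched as TATAAA, and the GC box was searched as GGGCGG. For the E-box the search letters were CACGTG, whereas for the E2F-type motif the letters searched were TTCCCGC. The forkhead-type motif was searched with the letters GTAAACA, and the cyclic AMP response element with the letters TGACGTCA. A STAT-type motif (TTCNNNGAA) and the p53 decamer were searched with their ambiguous positions.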

Additional observations from a re-analysis of the deposited data

How the results depend on the processing

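No paired analysis was possible because the 2 libraries form 1 group. Leaving out a library leaves no difference to test. Full-length models and the restriction to genes tested in both tables were chosen after seeing the data.

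The number of the 10 genes called higher in library 1 moved from 4 to 8 with DESeq2 size factors, and the number higher in library 2 moved from 4 to 1 with TMM and to 1 with DESeq2. Log2 ratios that changed sign with the scaling were those of Ccnd2 (TMM -0.0079, DESeq2 -0.044), Ccnd3 (-0.046 and -0.082), Btg1 (-0.086 and -0.12), Cdkn2d (-0.048 and -0.083, not called) and Btg2 (-0.074 and -0.11, called by DESeq2 only). Of the negative ratios, those of Btg1 were called by both TMM and DESeq2, and those of Ccnd2 and Ccnd3 by DESeq2 only. The ratio of Btg2 was also negative in the small table (-0.13, not called). By small-table counts, 1 gene was at least 2-fold apart instead of 2, and 29 of the network list were called instead of 44. With full-length models alone, Ccnd2 over Ccnd3 reversed from 3.16 to 0.391, Cdk4 over Cdk6 moved from 6.34 to 2.88, Cdkn2d over Cdkn2c from 15.0 to 6.36, Btg1 over Btg2 from 12.9 to 6.54, inhibitors over D cyclins from 0.108 to 0.244 and kinases over D cyclins from 0.208 to 0.144. In small-table counts these were 1.45 for Ccnd2 over Ccnd3, 5.14 for Cdk4 over Cdk6, 3.24 for Btg1 over Btg2, 8.94 for Cdkn2d over Cdkn2c, 0.377 for inhibitors over D cyclins and 0.527 for kinases over D cyclins. Cdkn1b over Cdkn1a was 24.9 there, the mean of 41.2 in library 1 and 8.54 in library 2, and by TPM 8.86, the mean of 14.1 and 3.66, so either library alone moves it. The most abundant model was the same by counts as by TPM for 6 of the 10 genes. In library 2 alone, the leading model of Btg1 was Btg1-202 instead of Btg1-201. The cause of these shifts was not tested, apart from the models that the full-length setting leaves out. A detection threshold of 5 TPM kept 9 of the 10 genes, without Cdkn1a. Other minimum counts changed no call or direction of the 10 genes. TPM + 1, which was not tested for calls, changed no direction, but the log2 ratio of Cdkn2c was then -0.94, under 2-fold. FPKM, used for levels and for ratios between genes only, left both nearly unchanged. Depth limits Cdkn1a and Cdkn2c most, at 51 and 96 counts in their lower library.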
